A study of Mus musculus with 24 samples.

Results

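The residual response to interferon beta (IFN beta) was measured in 2 clones of ID8 cells, a mouse ovarian surface epithelial cancer line, in which Ifnar1 had been knocked out with CRISPR. The comparison took the 6 IFN beta-treated libraries of the clones 1CF10 and 2CD7 against their 6 untreated libraries, with the clone as an additive factor, and used 12 of the 24 libraries of the series. All lines, controls included, were knockouts of both Trp53 and Brca2 and were grown in medium with 4% foetal calf serum. Treated cells received recombinant mouse IFN beta at 10000 IU/ml for 3 h, and untreated cells served as the baseline. The controls, which kept Ifnar1, were untransfected cells (WT) and cells given the empty CRISPR vector (EV), each treated and untreated, with 3 libraries in each of 8 groups. Each knockout line is a single clone, and a group consists of 3 technical replicates that shared a treatment date, so p-values measure technical spread only.

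Type I interferons act through a receptor of 2 chains, encoded by Ifnar1 and Ifnar2. The receptor signals through the kinases JAK1 and TYK2 to the factor ISGF3, which contains STAT2 and IRF9 and binds interferon-stimulated response elements (ISRE) in the promoters of antiviral genes. In tumour cells the same pathway also raises genes of peptide presentation, chemokines and the checkpoint ligand Cd274, and its own inhibitors Socs1 and Usp18 close it again.

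The sequences below show the core letters of the ISRE in the promoters of 6 genes that were raised in the controls and whose clone values are given further on; a match of letters is a description, not a proven binding site. They are RefSeq promoter windows on GRCm38.p6, each written 5′ to 3′ in the direction of its gene, and the capitals mark every match to the ISRE core GAAANNGAA on either strand. The window of Rsad2 is at chr12:26456533-26456601 (minus strand), that of Ifit1 at chr19:34640775-34640843 (plus), that of Isg15 at chr4:156200846-156200914 (minus), that of Cxcl10 at chr5:92349064-92349132 (minus), that of Gbp2 at chr3:142620575-142620643 (plus) and that of Cd274 at chr19:29367332-29367400 (plus).
Rsad2: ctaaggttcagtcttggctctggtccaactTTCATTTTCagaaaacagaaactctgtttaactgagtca
Ifit1: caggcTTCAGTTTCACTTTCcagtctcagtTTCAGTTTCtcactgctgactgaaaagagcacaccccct
Isg15: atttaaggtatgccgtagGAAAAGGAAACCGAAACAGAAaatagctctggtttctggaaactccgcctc
Cxcl10: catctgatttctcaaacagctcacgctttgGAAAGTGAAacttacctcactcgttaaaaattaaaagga
Gbp2: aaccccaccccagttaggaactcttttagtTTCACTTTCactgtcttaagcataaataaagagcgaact
Cd274: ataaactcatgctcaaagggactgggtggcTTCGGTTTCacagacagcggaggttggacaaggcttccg
The core begins 119 bases before the annotated start of Rsad2, 84 before Ifit1, 66 before Isg15, 213 before Cxcl10, 58 before Gbp2 and 76 before Cd274, counting the match nearest the start. Of all 32851 promoters of 300 bases in the table, 2812 (8.56%) hold the core, and those of Helz2, Irf9, Tnfsf10, Ccrl2 and Olfr56 hold none. A promoter was matched for 95 of the 132 genes raised most in the controls and for 8194 of 11698 tested genes. Because both fall short of the 80% needed, a comparison of genes with and without the core is void and no share is given.

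The 12 clone libraries held 2204114 to 3097331 UMIs (unique molecular identifiers, which count RNA molecules), and mitochondrial genes took 1.16% to 1.62% of them. Summed mesothelial and epithelial markers, which fit the origin of ID8 cells, lay at 2479 to 3537 CPM (UMIs scaled to equal library totals) in the clones, and summed leukocyte markers at 9.82 to 22.1 CPM, with 1 of 22 leukocyte genes, Cd14, expressed highly enough to be tested. Treated 1CF10 library 3 stood apart in its overall profile, at 4.55 and 3.57 chi-square units per gene from the other 2 libraries of its group, against 1.43 to 2.66 among other pairs within clone groups. Treated 2CD7 library 2 stood apart in interferon genes, as described further on, and the results are given with and without it.

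No gene passed the test in the pooled clones. Of 11698 tested genes, edgeR's quasi-likelihood test with Benjamini-Hochberg adjustment called 0 higher and 0 lower (0% each), and the smallest adjusted p was 0.991. At an unadjusted p under 0.05 there were 311 genes higher (2.66%) and 205 lower (1.75%), together 4.41% of the tested genes. Without treated 2CD7 library 2 there were again 0 calls, the smallest adjusted p was 0.99 and 326 genes (2.79%) were higher at an unadjusted p under 0.05. DESeq2 and limma-voom also called 0 genes in the clones, and so did edgeR without treated 1CF10 library 3. Measured the same way, the 12 control libraries gave 764 genes higher (6.53%) and 401 lower (3.43%) after IFN beta.

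The clone data were precise enough to bound the response of most tested genes. The 95% interval of the clone response lay within 2-fold in both directions for 11319 of 11698 tested genes (96.8%), and the median SE was 0.12 on the log2 scale. Precision fell with expression: the interval was that narrow for 85.2% of the 2007 genes with a mean log2 CPM of 1 to 3 and for 0 of the 71 genes below 1. It was also lower for the 132 genes raised at least 4-fold in the controls. Of these, 44 had an interval within 2-fold, and their median SE was 0.45.

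The clones' response was tested directly against that of the controls. With 1 mean for each of the 8 groups, edgeR called 430 genes with a lower response in the clones (3.68%) and 183 with a higher one (1.56%). Of the 430 genes, 420 had been raised in the controls, and their median log2 fold change was 0.00 in the clones against 0.94 in the controls. Of the 183 genes, 150 had been lowered in the controls, and their medians were 0.12 and -0.42. Of all tested genes, 6.53% were raised and 3.43% lowered in the controls. These overlaps and medians are largely built in, because the test subtracts the response of the same control libraries, so they are a description. With the lines of a kind pooled within the fit, an alternative added after the data had been seen, 441 genes (3.77%) were called lower and 188 (1.61%) higher.

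A set of 132 genes raised at least 4-fold in the controls, picked on the 12 control libraries alone, was then followed in the clones. Its median log2 fold change was 3.78 in the controls and 0.27 in the clones, or 0.21 when the 13 genes with 0 UMIs in a clone group were given a bound instead, with 3 UMIs per group as the floor. A total of 100 genes lay above 0 and 32 below, so 75.8% were above 0 where 51.6% of all tested genes were. Without treated 2CD7 library 2 the median was 0.06, with 82 genes (62.1%) above 0 where 51.3% of all tested genes were. The genes counted by sign include 3 with 0 UMIs in all clone libraries, whose sign has no meaning. For 124 of the 132 genes the upper end of the clones' 95% interval lay below the controls' response, and for 44 the interval lay within 2-fold. The controls' response in that count is the estimate on which the 132 genes were picked, taken without its own error. Many of these genes passed the filter on low counts through the treated controls: filtered on the clone libraries alone, 46 of the 132 were tested, with a clone median of 0.17. The difference of responses was called for 86 of the 132, or 92 with the lines pooled. That test uses the control libraries on which the 132 were picked, so these counts are a description and not separate support.

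The remaining 8 genes were named after their values were seen. Tnfsf10, Gm4951 and F830016B08Rik had 0 UMIs in the 12 clone libraries and no interval, and Oas2, Plekha4, Oas1a, Trim34a and Trim12c had so few that the interval reached the controls' response. At the level of single genes the set was thinly counted: 3 genes had 0 UMIs over all clone libraries, 34 had 1 to 11, 54 had 12 to 119 and 41 had 120 or more. Those 41 genes held 85.4% of the set's UMIs, and 35 of them had an interval within 2-fold.

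**Figure D1:**
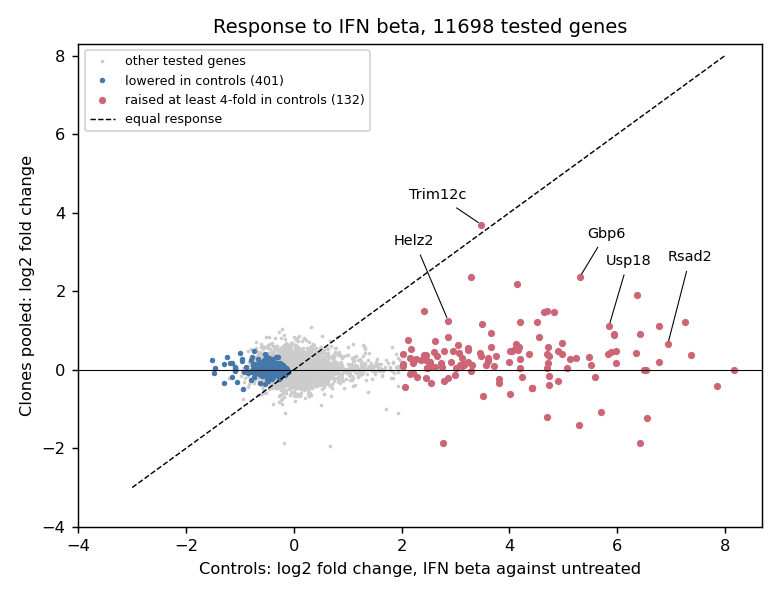
Each point is 1 of 11698 tested genes, with the log2 fold change after IFN beta in the pooled controls on the horizontal axis and in the pooled clones on the vertical axis. The 132 genes raised at least 4-fold in the controls (red) have a clone median of 0.27, with 100 above 0 and 32 below. These counts include 3 genes without clone UMIs, whose sign has no meaning. Trim12c, which rests on 9 UMIs, is the named gene on the dashed line of equal response.

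Summed over the 132 genes, untreated clone 1CF10 gave 653, 598 and 643 CPM and treated 1CF10 gave 652, 637 and 704 CPM. These groups overlapped. Untreated 2CD7 gave 507, 524 and 543 CPM, and treated 2CD7 gave 569.8, 807 and 559.9 CPM, so all 3 treated libraries were above all 3 untreated ones and library 2 was far above the rest. The 6 untreated control libraries held 734 to 1369 CPM and the 6 treated ones 12526 to 17223 CPM.

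Set against the mean rise of 13711 CPM in the controls, the clones' mean rise was 0.56% of it. The share was 0.238% in 1CF10, a rise of 32.6 CPM, and 0.882% in 2CD7, a rise of 121 CPM. In bulk libraries a response of few cells and a small response of all cells cannot be told apart. The SD between treated libraries within a clone was 0.745% of the controls' rise with all libraries and 0.211% without treated 2CD7 library 2. Without that library the share was 0.265% in both clones together and 0.292% in 2CD7, a rise of 40.1 CPM, and without treated 1CF10 library 3 the pooled share was 0.488%. Single treated libraries stood at 0.147%, 0.0397% and 0.527% in 1CF10 and at 0.329%, 2.06% and 0.256% in 2CD7, and the untreated libraries at -0.243% to 0.16% around their own clone's mean.

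**Figure D2:**
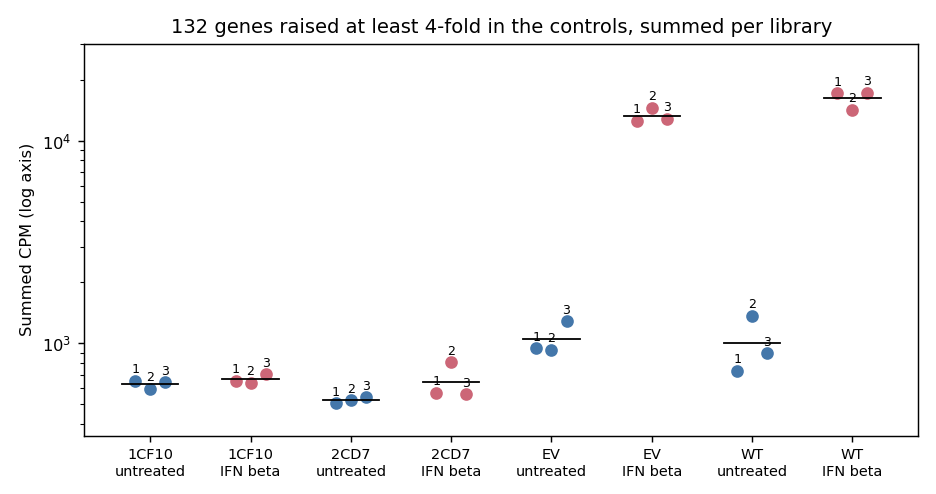
Points are libraries, numbered by replicate, and lines are means of the 3 libraries of each group; the vertical axis is the summed CPM of the 132 control-raised genes on a log scale. Treated clones lie between 559.9 and 807 CPM, and treated controls lie at 12526 CPM or more.

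Among the receptor and its kinases, Ifnar1 had 15 to 31 UMIs in each treated clone library and 11 to 29 in each untreated one, in all 147 against 130. These ranges overlapped, and the log2 fold change was 0.22 ± 0.19 (SE, n = 6 against 6 libraries, as for all clone values that follow). Ifnar1 transcripts were thus still counted in both clones. Since the libraries count 3′ ends and the sources used here do not give the edited position, these counts do not check the knockout. The other chain, Ifnar2, was at 0.16 ± 0.14, Jak1 at 0.06 ± 0.08 and Tyk2 at -0.03 ± 0.21. In the controls the same 4 genes were at 0.20, 0.29, 0.03 and -0.15 on the log2 scale.

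The transcription factors of the pathway are themselves interferon-inducible. Stat2, a subunit of ISGF3, was at 7.03, 6.24 and 10.6 CPM in treated 1CF10 against 6.06, 8.57 and 5.81 untreated, and at 9.52, 9.21 and 12.7 CPM in treated 2CD7 against 8.72, 4.72 and 10.3. The groups overlapped in both clones, and the log2 fold change of Stat2 was 0.30 ± 0.20 against 3.12 ± 0.10 in the controls (edgeR adjusted p of the difference 6.81e-15). Irf1, an early responder that also drives antigen presentation genes, had the narrowest interval of this group, -0.08 to 0.25 around 0.08, against 1.96 in the controls. Irf9, the DNA-binding partner in ISGF3, was at 0.53 ± 0.31, and at 0.25 without treated 2CD7 library 2, against 2.18 in the controls. Irf7, which amplifies interferon production, was at 0.57 ± 0.45 and at 0.02 without that library.

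The feedback inhibitors did not share a direction. Socs1, a suppressor of JAK kinases, had 74 UMIs in untreated and 55 in treated clone libraries, a log2 fold change of -0.39 ± 0.27 against 4.74 in the controls (edgeR adjusted p of the difference 6.4e-19). Usp18, which blocks the receptor at IFNAR2 and removes ISG15 from proteins, had 21 UMIs in untreated and 45 in treated libraries, and 22 of the 45 came from treated 2CD7 library 2. Its log2 fold change was 1.11 ± 0.45 (edgeR unadjusted p = 0.0174, adjusted p = 0.991) and 0.44 without that library, where the unadjusted edgeR p was 0.336. Socs3, an inhibitor of the gp130 receptors, was at 0.33 ± 0.16 (edgeR unadjusted p = 0.0428) against 0.75 in the controls. In all, 2 of 27 tested signalling genes, Usp18 and Socs3, had an unadjusted p under 0.05 upward, where the share of all tested genes was 2.66%, and 0 downward. The median of this list was 0.11, and 14 of its genes were called up in the controls.

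Antiviral effectors formed the largest list, with 60 tested genes, of which 58 were called up in the controls and 0 in the clones. Their median log2 fold change was 0.18 in the clones, 0.12 with bounds for genes without UMIs and 0.05 without treated 2CD7 library 2, against 3.02 in the controls. In the clones 47 of the 60 lay above 0, where 51.6% of all tested genes did. At an unadjusted edgeR p under 0.05 there were 4 upward, where the share of all tested genes was 2.66%, and 0 downward. Rsad2, which makes a chain-terminating nucleotide, had 11, 5 and 1 UMIs in treated 1CF10 against 6, 4 and 6 untreated, and 10, 25 and 5 in treated 2CD7 against 6, 6 and 9. The groups overlapped in each clone. Its log2 fold change was 0.65 ± 0.37, or 0.20 without treated 2CD7 library 2, against 6.94 ± 0.16 in the controls (edgeR adjusted p of the difference 3.15e-06).

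Ifit1, a sensor of foreign RNA caps, had 13, 12 and 9 UMIs in treated 1CF10 against 12, 10 and 8, and 7, 58 and 13 in treated 2CD7 against 14, 8 and 8. A single library thus held 58 of its 112 UMIs in treated clones. The log2 fold change was 0.91 ± 0.50, and 0.20 without that library, against 6.42 in the controls; Ifit genes are close copies of one another, so reads could be split among them. Isg15, a ubiquitin-like modifier, was at 0.48 ± 0.36, and at 0.48 ± 0.39 without that library. Bst2, which tethers virus particles at the membrane, was at -0.14 ± 0.16 and Oasl1 at 0.26 ± 0.25, against 1.64 and 4.19 in the controls.

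Of the 132 control-raised genes, 7 (5.30%) had an unadjusted edgeR p under 0.05 upward and 0 downward, where the share of all tested genes was 2.66% upward. These 7, named after their values were seen, were Helz2, Usp18, Parp12, Trim34a, Trim12c, Slfn9 and Gbp6. Without treated 2CD7 library 2 there were 4 of 132 (3.03%, against 2.79% of all tested genes).

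Helz2, a helicase and nuclear receptor coactivator at chr2:181227615-181242027, had 8, 9 and 14 UMIs in treated 1CF10 against 6, 3 and 5, and 6, 9 and 8 in treated 2CD7 against 0, 7 and 2. In 1CF10 the lowest treated CPM, 2.68, was above the highest untreated one, 2.60, and in 2CD7 the groups overlapped. The log2 fold change was 1.25 ± 0.38 (edgeR unadjusted p = 0.00188, adjusted p = 0.991), 1.14 in 1CF10 and 1.40 in 2CD7. It was 1.23 without treated 2CD7 library 2, so this value did not rest on that library. In the controls Helz2 was at 2.87 ± 0.18, and the clones' response was lower (edgeR adjusted p of the difference 0.0367).

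Trim12c, of a family of TRIM ubiquitin ligases with near-identical neighbours, had 0 UMIs in the 6 untreated clone libraries and 9 in the treated ones, 8 of them in 1CF10. That is 3.13-fold higher when 3 UMIs in the untreated group is taken as the floor. The 9 treated UMIs are taken as exact there, so the value is not a lower bound. The related Trim34a had 1 UMI untreated and 7 treated, a ratio of 7.31 with an exact 95% counting interval of 0.939 to 329. Gbp6, a guanylate-binding GTPase with close copies, had 1 and 8, a ratio of 8.35 with an interval of 1.12 to 371. These intervals are wide. Parp12, an ADP-ribosyltransferase, was better counted, with 252 untreated and 300 treated UMIs and a log2 fold change of 0.30 ± 0.14, or 0.23 without treated 2CD7 library 2. Slfn9, a Schlafen family member with close copies, was at 0.35 ± 0.16 with 190 and 235 UMIs, and did not move without that library (0.35). Both were far from the controls' 2.16 and 2.65, with edgeR adjusted p of the difference 4.62e-07 for Parp12 and 8.66e-14 for Slfn9.

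Only Gbp6 among the 132 genes had treated libraries above untreated ones without overlap in each clone (0.758%), where 35 of all tested genes had (0.299%). None of the 132 was below without overlap in each clone, as 9 of all tested genes were (0.0769%).

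The interferon-inducible GTPases, which attack the membranes of intracellular parasites, had 15 tested members. All 15 were called up in the controls, with a median of 5.12, and 0 in the clones. Their clone median was 0.27, with 1CF10 at -0.15 and 2CD7 at 0.78, and without treated 2CD7 library 2 it was -0.15. With all libraries 12 of the 15 lay above 0. At an unadjusted edgeR p under 0.05 there was 1 upward (2.66% of all tested genes) and 0 downward. Gbp2 was at 0.33 ± 0.22 and Igtp at 0.40 ± 0.53, the latter at -0.42 without that library. Of the 20 tested nucleic acid sensors 17 were called up in the controls, and the clone median was 0.12. The RNA sensors Ddx58 (RIG-I) and Ifih1 (MDA5) were at 0.24 ± 0.14 and -0.03 ± 0.21, against 2.45 and 3.28 in the controls.

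Antigen presentation genes differed in expression, and the clones' 95% interval lay within 2-fold for 18 of the 22 tested. Psmb8 and Psmb9 were thinly counted, with 3 and 9 UMIs in untreated and 4 and 6 in treated clone libraries. The class I chains were well expressed and gave narrow bounds. B2m, the light chain of MHC class I, was at 428 to 515 CPM in the 6 treated clone libraries and 434 to 526 CPM in the untreated ones. These ranges overlapped almost fully, and the 95% interval of its log2 fold change was -0.13 to 0.08, which leaves out the controls' 0.91. H2-D1 and H2-K1, class I heavy chains, were at 0.02 ± 0.06 and 0.13 ± 0.10, against 0.99 and 1.33. Tap1, the peptide transporter, was at -0.15 ± 0.41 against 4.74. Of 22 tested genes 18 were called up in the controls, and 2 had an unadjusted edgeR p under 0.05 upward in the clones (2.66% of all tested genes had), the chaperones Pdia3 (0.19 ± 0.06) and Canx (0.16 ± 0.06), which were at 0.04 and -0.05 in the controls. The list's clone median was 0.04.

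Among secreted and surface ligands, the chemokine Cxcl10, which draws T cells, had 17, 8 and 14 UMIs in treated 1CF10 against 16, 6 and 14, and 11, 52 and 12 in treated 2CD7 against 10, 18 and 23. In CPM, each treated library other than 2CD7 library 2 lay within its clone's untreated range. The log2 fold change was 0.42 ± 0.40 and was -0.10 without that library, against 6.35 in the controls. Cd274, which encodes PD-L1, had 21 untreated and 31 treated UMIs and was at 0.59 ± 0.45, or 0.26 without that library, against 4.72. The death ligand Tnfsf10 was at 0 in all 12 clone libraries and at 71 UMIs in the treated controls. Daxx, a histone chaperone raised 3.13 on the log2 scale in the controls, was well counted in the clones at 616 and 633 UMIs, with a log2 fold change of 0.09 ± 0.10.

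**Figure D3:**
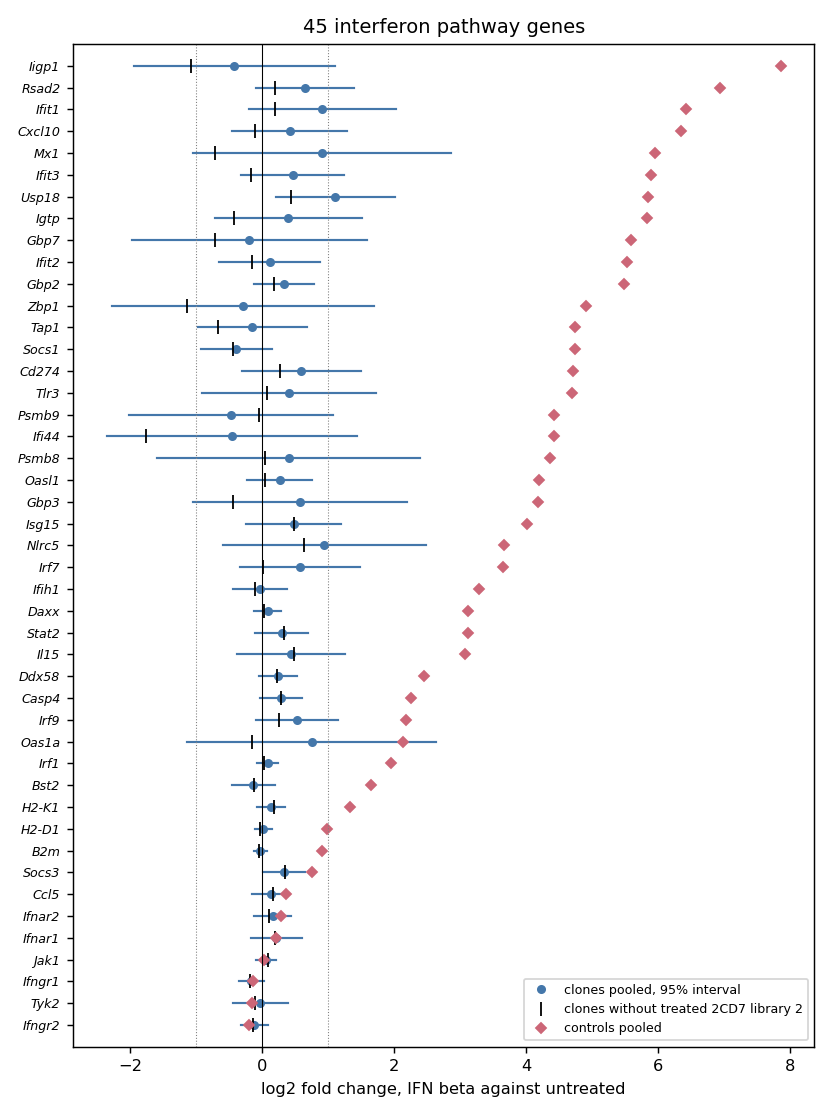
For 45 interferon pathway genes the blue point and bar give the clones' log2 fold change with its 95% interval, the black tick the value without treated 2CD7 library 2, and the red diamond the controls' value; dotted lines mark 2-fold. Of the panel's 47 genes, Tnfsf10 had no clone UMIs and is left out, and 1 more is not shown; 40 were called up in the controls, and for 38 of these the clones' upper bound is below the controls' value.

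Treated 2CD7 library 2 held more of the control-raised genes than its fellow libraries. In CPM it was above the mean of treated libraries 1 and 3 for 93 of the 132 genes, below for 27 and equal for 12. It was the highest of all 12 clone libraries for 44 of the 132 genes (33.3%), where it was the highest for 7.63% of all tested genes. The summed excess was 242 CPM, or 1.77% of the controls' rise, and over the 20 genes with the largest control rise the median excess was 1.49% of that rise, from 0.0312% to 5.44%.

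The 10 genes with the most excess, chosen on these values and so a description, held 41.4% of it. Tgtp1, an immunity-related GTPase with close copies, had 17, 74 and 15 UMIs in treated libraries 1, 2 and 3 of 2CD7, and Igtp had 3, 25 and 3. Better expressed genes differed less as a ratio: Daxx had 81, 136 and 101, Irgm1 62, 95 and 58, and Tor3a 45, 88 and 57. Their excess in CPM was 7.76, 7.10 and 8.52 in that order, against 7.53 for Igtp and 19.1 for Tgtp1. The library's total, 2821774 UMIs, was the largest of its group, so part of these UMI differences is depth, and the CPM plot takes depth out. The source of the excess was not tested.

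**Figure D4:**
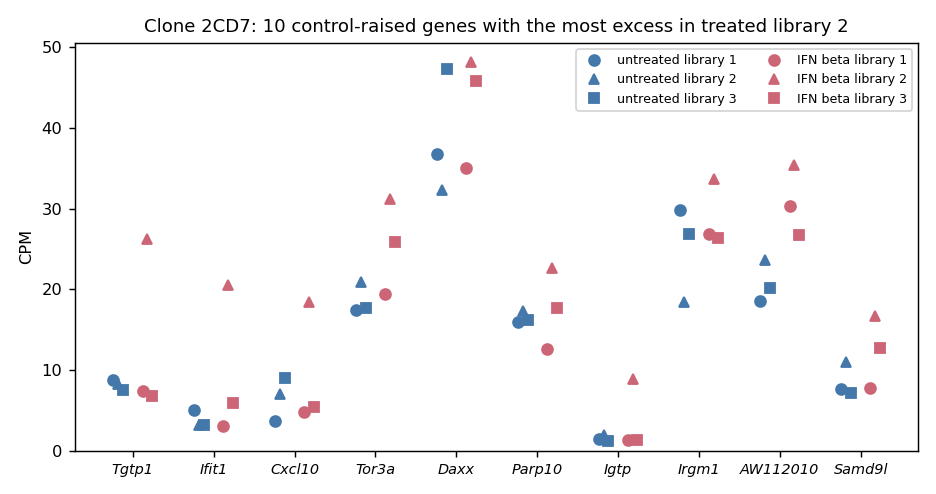
CPM in each library of clone 2CD7 for the 10 control-raised genes with the most excess in treated library 2; blue is untreated, red is IFN beta, and the shape gives the library number. The red triangle is the highest of the 6 libraries for each gene, while treated libraries 1 and 3 lie in or near the untreated range for Tgtp1, Ifit1, Cxcl10 and Igtp.

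The 2 clones were compared with each other by the difference of their responses. edgeR called 0 genes (0%) with a smallest adjusted p of 0.319, and 415 genes had an unadjusted p under 0.05; DESeq2 and limma-voom called 0 as well. The larger values of 2CD7 for Rsad2 (0.99 ± 0.46 against 0.10 ± 0.59 in 1CF10) and Ifit1 (1.42 ± 0.62 against 0.19 ± 0.74) thus did not pass the test.

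Genes lowered in the controls had clone values around 0. The 401 such genes had a median log2 fold change of -0.37 in the controls and 0.02 in the clones. In the clones 166 lay below 0 and 235 above, so 58.6% were above 0 where 51.6% of all tested genes were. Without treated 2CD7 library 2 these shares were 59.9% and 51.3%. For 398 of the 401 the 95% interval lay within 2-fold with all libraries, as it did for 96.8% of all tested genes. That bound cannot separate the clones from the controls here, since the controls' median of -0.37 is itself within 2-fold.

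Among genes with a mean log2 CPM of at least 1, predicted genes left out, none passed the test in the clones. The 5 with the smallest unadjusted edgeR p upward were Prr12, Sin3a, Sord, Smc5 and Pdia3. Sin3a, a corepressor scaffold, was at 29.9, 31.4 and 33.6 CPM in untreated 1CF10 and 37.5, 40.8 and 47.5 treated, and at 31.3, 33.8 and 37.1 CPM in untreated 2CD7 and 35.5, 42.5 and 48.1 treated. The groups were apart in 1CF10 and overlapped in 2CD7. The log2 fold change was 0.34 ± 0.10 (edgeR unadjusted p = 0.0011, adjusted p = 0.991).

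Downward, the 5 genes were Mrpl9, Fosl1, Rpl5-ps2, Snora73b and Ankrd1, of which Rpl5-ps2 is a pseudogene copy that can share reads with its parent. Ankrd1, a known target of the YAP and TEAD factors at chr19:36111961-36120099, was at 822, 887 and 884 CPM in untreated 1CF10 and 701, 770.4 and 703 treated, and at 353, 286 and 279 CPM in untreated 2CD7 and 286, 241 and 190.1 treated. All treated values were below the untreated ones in 1CF10, and the ranges overlapped in 2CD7. The log2 fold change was -0.31 ± 0.09 (edgeR unadjusted p = 0.00358, adjusted p = 0.991), and -0.31 without treated 2CD7 library 2. In the controls it was 0.28 ± 0.05, and the responses differed (edgeR adjusted p 0.00411).

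Immediate early genes, which report growth factor and stress signals, had 24 tested members. Of these, 6 had an unadjusted edgeR p under 0.05 downward and 0 upward, where the share of all tested genes was 1.75% downward, and 5 lay above 0. The 6 were Fosl1 (-0.30 ± 0.09), Ier2 (-0.24 ± 0.08), Ier3 (-0.14 ± 0.05), Myc (-0.22 ± 0.09), Ier5 (-0.35 ± 0.15) and Ccn2 (-0.21 ± 0.09), of which Myc, Ier5 and Ccn2 were named after their values were seen. Fosl1, an AP-1 subunit, was at 83 to 93.1 CPM in untreated and 72.7 to 81 in treated 1CF10, and at 34.2 to 49.1 and 24.5 to 34.7 CPM in 2CD7. The groups were apart in 1CF10 and overlapped slightly in 2CD7. The list's median was -0.04 in the clones and 0.26 in the controls, where 11 members were called up and 5 down. Values for the 6 genes in the controls were -0.18, -0.27, 0.14, 0.49, 0.31 and 0.71 in the same order.

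**Figure D5:**
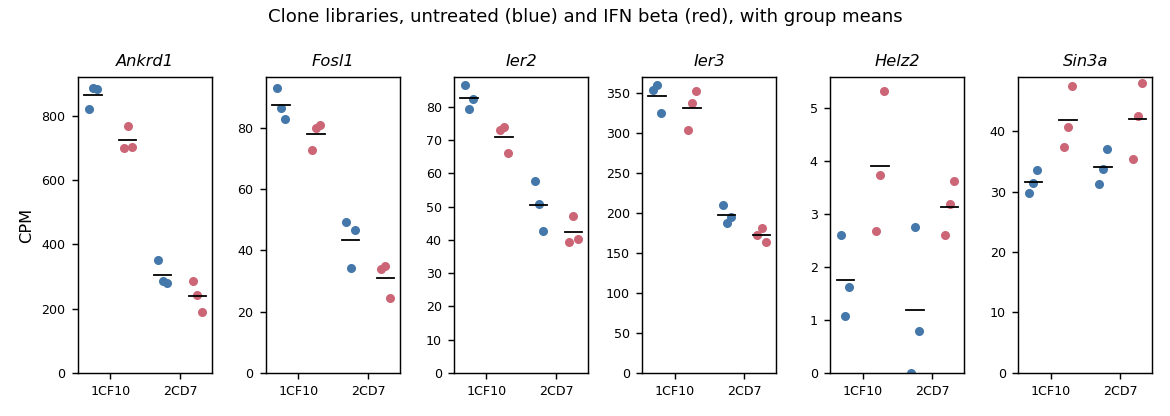
CPM of 6 genes in the 12 clone libraries, untreated in blue and IFN beta in red, with lines at the mean of 3 libraries. Ankrd1, Fosl1 and Ier2 are lower and Sin3a and Helz2 higher in treated 1CF10 with no overlap, while none of the 6 genes had an adjusted p under 0.99.

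The remaining lists stayed close to the median of all tested genes, 0.00 on the log2 scale. The 37 ribosomal protein genes were all below 0, where 5662 of 11698 tested genes were, and their median was -0.06. Of them 2 had an unadjusted edgeR p under 0.05 downward (1.75% of all tested genes), Rpl14 and Rps16. The list's median was -0.056 in 1CF10 and -0.076 in 2CD7. Treated 1CF10 library 3, which stood apart in its overall profile, had the lowest share of UMIs in these genes among the clone libraries, 3.645%. The lower values were not confined to that library or clone. In 2CD7 the shares were 4.08%, 4.168% and 4.131% treated against 4.304%, 4.319% and 4.265% untreated, without overlap. Medians were -0.03 for 17 NF-kB targets, 0.04 for 22 genes of the unfolded protein response, -0.01 for 35 cell cycle genes, 0.05 for 22 genes of cholesterol and fatty acid synthesis and 0.03 for 27 cell death genes. The 13 mitochondrial mRNAs were at 0.00, 14 chemokines and cytokines at 0.04 and 6 checkpoint ligands at -0.07. Of the mesothelial and epithelial markers, 2 of 10 had an unadjusted edgeR p under 0.05 upward, Wt1 (0.15 ± 0.06) and Upk3b (0.56 ± 0.24), where the share of all tested genes was 2.66%, and the list's median was 0.04. Interferon genes themselves were not tested, since 3 of the 21 listed were in the table and 0 reached the expression needed.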

How the data were processed

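RNA of 24 cultures, plated at 50000 cells per well 24 h before treatment, was used at 20 ng per library, with UMIs of 10 bp joined at the poly(A) tail, per the labels' protocols. The authors deposited UMI counts per Ensembl gene, without normalization. Per the submitters' processing notes, cutadapt 3.0, edgeR 3.36.0 and limma 3.50.0 were used with R (3.6.2 and 4.1.2), and the builds listed are mm10 and GRCm38; no aligner is named in the sources used here. Coordinates came from GENCODE M21 on GRCm38.

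Of 24614 genes, filterByExpr (minimum count 10, minimum total 15, over 8 groups) kept 11698, which held 99.5% to 99.6% of UMIs. Library totals were 1972192 to 3097331 UMIs. The 12 clone and the 12 control libraries were each fitted with line and treatment as additive terms (edgeR 4.0.16 in R 4.3.3, TMM scaling, robust quasi-likelihood test). Differences of responses used all 24 libraries. The threshold for a call was an adjusted p (Benjamini-Hochberg) under 0.05, and SEs and 95% intervals are from the same fits. CPM used library totals. Counting intervals and floors cover counting error only. The scripts were tested on simulated data.

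The comparison, the gene lists and the rules were chosen with earlier results of these data known. Named were a panel of 47 interferon pathway genes, the 5 genes per direction with the smallest clone p, the 10 most raised in the controls (both with a mean log2 CPM of at least 1, predicted genes skipped), up to 3 members per list, and the 10 genes with the most excess in treated 2CD7 library 2. Of the panel, 1 gene is not reported here. Other settings were RLE factors, DESeq2 1.42.0, limma-voom (limma 3.58.1), other filters, thinning to equal totals, other designs, a replicate block and leaving out each library.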

Additional observations from a re-analysis of the deposited data

Results flagged for a closer look

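The response to IFN beta differed between the clones and the controls in the edgeR test of the difference itself, with 430 genes lower and 183 higher in the clones at an adjusted p under 0.05. Of the 430 genes 420 were raised in the controls, and of the 183 genes 150 were lowered there. These overlaps are largely built in, because the test subtracts the response of the same control libraries.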

How the results depend on the processing

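In 22 other settings of the clone fit, 21 gave 0 calls. Without a filter on low counts 1 gene was lower, Ankrd1 (log2 fold change -0.32, edgeR adjusted p = 3.04e-05 against 0.991 with the filter). The number of genes at an unadjusted p under 0.05 ranged from 222 to 905 over these settings, and the median of the control-raised genes from 0.06 to 0.28, over the 46 to 132 of them that each setting tested. Of 122 named genes, 26 had the opposite sign in at least 1 of the settings that tested them, 13 of them without treated 2CD7 library 2.

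DESeq2 lowered the controls' lowered genes from 401 to 205 and the genes with a higher response in the clones from 183 to 89. The latter count was 108 to 214 when each library was left out in turn, lowest without untreated EV library 1. Between the clones, 1 gene, Senp6, was higher in 2CD7 without a filter (log2 difference 0.64, edgeR adjusted p = 0.0461) and without treated 1CF10 library 1 (0.76, adjusted p = 0.0268), so leaving out each library gave 0 to 1 gene. The causes were not tested. The residual share was 0.865% over genes raised 2-fold, 0.392% over genes raised 8-fold, 0.265% to 0.716% with each clone library left out, and 6.95% as a median ratio of log2 fold changes, which is another quantity.

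The replicate numbers did not pair the libraries: deviations from the group means correlated at 0.0216 on average (-0.17 to 0.154, 18 pairs) for the same number and -0.0106 for other numbers. With a replicate block the clones gave 0 calls, the controls 759 higher and 391 lower, the difference of responses 431 lower and 189 higher, and the difference between clones 0. No result is given for the motif with 1 more base, since the promoter comparison was void. Genes with few UMIs in the clones limit what can be bounded.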
